A study of Homo sapiens with 6 samples.

Results

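The 10 genes described here encode surface and secreted molecules through which a tumour cell can restrain T cells and phagocytes. They are CD274, PDCD1LG2, CD276, PVR, NECTIN2, CD47, LGALS3, LGALS9, TNFRSF14 and NT5E. They were chosen by name, and all 10 of 10 symbols were found among the 40895 gene identifiers of the deposited counts. RNA was measured in A375SM cells, which descend from metastases of the human melanoma line A375, with 3 libraries of cells transduced with a hairpin against PRAME (shPRAME) and 3 of cells transduced with a control hairpin (shCtrl). All 6 libraries have the same genotype label, WT, and the same batch label. PRAME is a cancer-testis antigen and a substrate receptor of a CUL2 ubiquitin ligase. The number of hairpins and whether replicates were separate cultures or transductions is not given in the sources used here. All p-values therefore rest on library-to-library spread alone, and that spread may be technical. The labels name melanoma cells only, and the 10 genes are read as the ligand side. Transcripts of some receptor genes were also counted in these libraries.

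T cells carry inhibitory receptors that are engaged by ligands on the cells they meet. PD-1 binds PD-L1 (CD274) and PD-L2 (PDCD1LG2). TIGIT competes with the activating receptor CD226 for the poliovirus receptor PVR and for NECTIN2, and BTLA binds HVEM (TNFRSF14). Other routes act without a classical T cell receptor partner: CD47 signals to SIRPA on phagocytes, galectins cross-link surface glycans, and CD73 (NT5E) makes adenosine from AMP. In melanoma, CD274 is known chiefly as a gene that interferon gamma induces through JAK1, JAK2 and IRF1.

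PRAME itself had 56.4 ± 2.29 CPM in shPRAME cells and 165 ± 1.26 CPM in shCtrl cells (mean ± SD, n = 3 each; CPM, the usual depth-scaled count, was TMM-scaled for composition). Libraries held 30842788 to 33854545 counts in shPRAME and 31525186 to 34107332 in shCtrl. The floor used below, 3 counts in 1 library, was worth 0.088 to 0.0973 CPM. It is the upper limit for a library without any count and covers counting error only. The melanocyte lineage genes ERBB3 (603 ± 12.3 CPM in shPRAME, 322 ± 4.11 CPM in shCtrl) and SOX10 (275 ± 1.48 and 266 ± 7.95 CPM) were abundant, while the pigment genes MLANA and TYR were at or near 0 in every library. Of 14 T and NK cell markers found, CD3E, CD3G, CD5, CD8B, GNLY and NKG7 had no count in any library. Nuclear ribosomal RNA took 2.06% to 3.14% of counts in shPRAME libraries and 4.61% to 4.99% in shCtrl libraries. Its part in the results was not tested.

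The ligand genes did not move as 1 group. Of the 8 members with enough counts to be tested, PVR, NECTIN2 and CD47 were higher in shPRAME, LGALS3, TNFRSF14 and NT5E were lower, and CD274 and CD276 did not pass. PDCD1LG2 and LGALS9 did not reach the filter on low counts. TNFRSF14 reached it only through its shCtrl libraries, so a gene as low in both groups would not have been counted. The threshold was a Benjamini-Hochberg adjusted p of 0.05 over 15954 genes in edgeR's quasi-likelihood test. In that test 37.7% of all genes were higher and 36.8% lower (74.4% in either direction), so 3 members each way among 8 is close to the background. At least 2-fold lower were LGALS3, TNFRSF14 and NT5E, 3 of 8 where 8.43% of all genes were, and at least 2-fold higher were 0 of 8, where 10.1% of all genes were. The count of 3 rests on that limit, since LGALS3, at a log2 fold change of -1.001, stood at -0.95 with library total scaling or without shCtrl replicate 2, and NT5E stood at -0.78 with the shift of its neighbouring genes removed. The median log2 fold change (shPRAME over shCtrl) was 0.06 over the 8 members and 0.01 over all tested genes. Of the 8 tested members, 6 had libraries that did not overlap between the groups, close to the 76.5% of all tested genes. These were the 6 members that passed. Summed over the 10 members, the level was 536 to 558 CPM in shPRAME libraries and 767 to 813 CPM in shCtrl libraries. That lower sum was due to NT5E: the other 9 members, a sum taken after the data were seen, came to 319 to 332 CPM in shPRAME and 292 to 299 CPM in shCtrl. In bulk RNA, fewer cells with a transcript and less transcript per cell cannot be told apart.

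**Figure D1:**
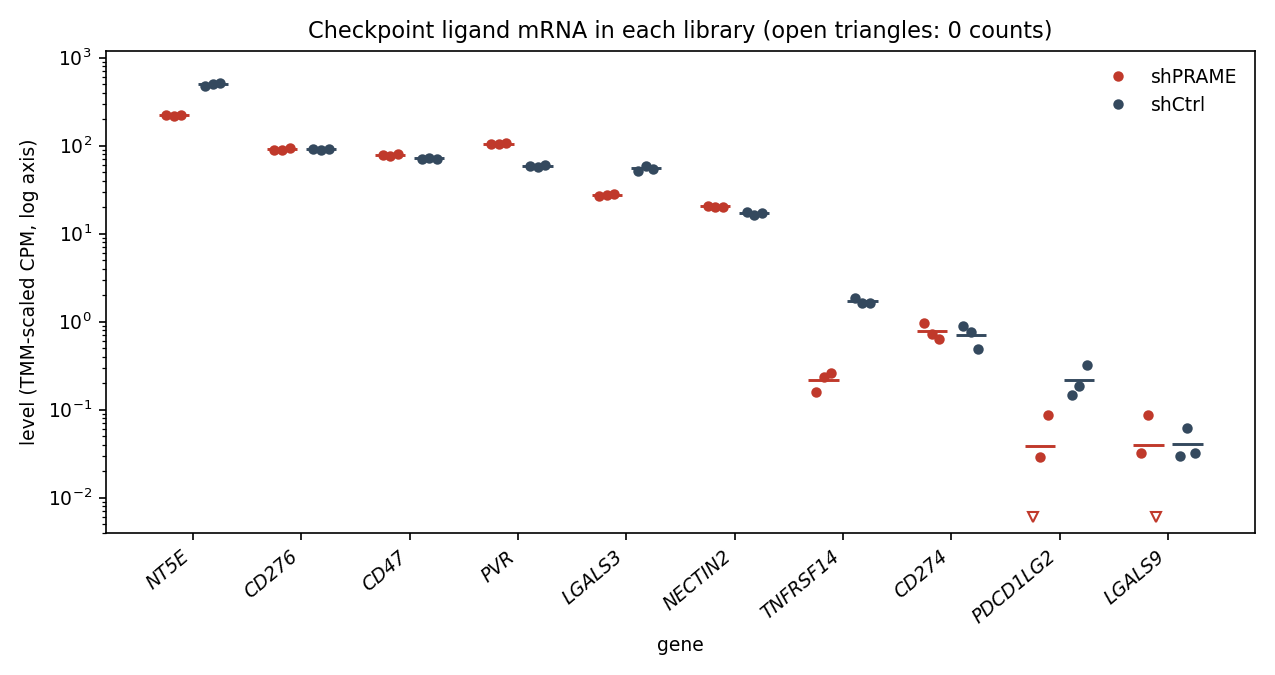
TMM-scaled CPM of the 10 ligand genes in each library, on a log axis, with shPRAME to the left of shCtrl for each gene; horizontal bars are means of 3 libraries and open triangles are libraries with 0 counts. NT5E was the most abundant in both groups, PVR stood at 103 to 107 CPM in shPRAME against 57.8 to 59.9 CPM in shCtrl, and CD274, PDCD1LG2, LGALS9 and TNFRSF14 lay below 2 CPM throughout.

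The PD-1 ligands were barely transcribed in either group. On chromosome 9 (5450542 to 5470554 in GRCh38), CD274 (NCBI gene 29126) received 30, 25 and 22 counts in shPRAME and 30, 25 and 15 in shCtrl. That is 0.960, 0.725 and 0.637 CPM in shPRAME against 0.887, 0.764 and 0.486 CPM in shCtrl, and the groups overlapped. The log2 fold change was 0.10 (SE 0.27, 95% interval -0.47 to 0.68, edgeR adjusted p = 0.747). At this depth the counts remain compatible with differences across that interval, in either direction. The sign turned without shPRAME replicate 1 (-0.07) or without shCtrl replicate 3 (-0.10).

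The RefSeq window around the annotated start of CD274, 250 bases before to 50 after it, is shown because it holds the letters that interferon-activated factors are known to bind. The window is chr9:5450292-5450591 on the plus strand (GRCh38.p14). Capitals mark matches to GAAA, any 2 bases and GAAA, a simple form of the interferon-stimulated response element, and to TTCNNNGAA, the gamma-activated sequence, each searched on both strands.

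CD274: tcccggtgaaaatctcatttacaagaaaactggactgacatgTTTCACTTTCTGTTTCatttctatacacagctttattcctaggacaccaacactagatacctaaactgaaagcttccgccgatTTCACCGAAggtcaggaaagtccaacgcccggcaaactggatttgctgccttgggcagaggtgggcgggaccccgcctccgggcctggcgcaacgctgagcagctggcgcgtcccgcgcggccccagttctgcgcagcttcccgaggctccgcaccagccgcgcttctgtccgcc

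There were 3 matches in it. TTTCACTTTC began at base 43 and TTTCTGTTTC at base 49, and these overlap, while TTCACCGAA began at base 126. The first motif was found in 3.65% of the 27305 gene windows of this length and the second in 7.88%. A match is a run of letters and does not show that a factor was bound in these cells.

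PDCD1LG2 (NCBI gene 80380, chromosome 9, 5510531 to 5571282), the second PD-1 ligand, had 0, 1 and 3 counts in shPRAME and 5, 6 and 10 in shCtrl. The groups did not overlap, and the shPRAME libraries were all at or under the floor of 3 counts. Over the groups the counts were 4 and 21, and the shPRAME level was 0.185 of the shCtrl level with an exact 95% counting interval of 0.0462 to 0.548. The gene was too low for the test with the filter; without any filter its log2 fold change was -2.33 (SE 0.78, edgeR adjusted p = 0.00624). The unfiltered fit treated the spread between libraries as known exactly, so that p is not relied on. The ratio of CD274 to PDCD1LG2 counts was computed with 0.5 added to each, but in shPRAME it is set by that addition to counts at or under the floor, and it is not interpreted.

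An antisense transcript runs across both PD-1 ligand genes. INCR1, a long noncoding RNA gene on the minus strand, had 39, 51 and 63 counts in shPRAME and 34, 28 and 39 in shCtrl. Its log2 fold change was 0.55 (SE 0.21, edgeR adjusted p = 0.024), although shPRAME replicate 1 (1.25 CPM) and shCtrl replicate 3 (1.26 CPM) overlapped. Whether the counting used strand is not given in the sources used here, and reads of CD274 or PDCD1LG2 and of INCR1 from the shared stretch cannot be told apart without it. Over the 6 libraries INCR1 had 254 counts, CD274 147 and PDCD1LG2 25.

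CD276, which encodes the B7 family member B7-H3 (NCBI gene 80381, chromosome 15, 73683944 to 73714514), was abundant and did not pass. It had 90.1, 90.2 and 94.3 CPM in shPRAME and 90.8, 90.2 and 90.6 CPM in shCtrl. The ranges overlapped, and the log2 fold change was 0.02 (95% interval -0.05 to 0.08, edgeR adjusted p = 0.643).

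PVR (NCBI gene 5817, chromosome 19, 44643910 to 44666162) showed the largest rise among the tested members. It had 103, 104 and 107 CPM in shPRAME and 58.3, 57.8 and 59.9 CPM in shCtrl, so every shPRAME library was far above every shCtrl library. The level was 1.79-fold higher (log2 fold change 0.84, SE 0.031, edgeR adjusted p = 1.16e-13). CEACAM19 overlaps the end of PVR on the genome, with 561 counts over all libraries where PVR had 16234, and it also rose (3.68 ± 0.343 CPM in shPRAME, 1.97 ± 0.234 CPM in shCtrl).

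NECTIN2, the other ligand shared by TIGIT and CD226 (NCBI gene 5819, chromosome 19, 44846297 to 44889223), rose less. It had 20.7, 20.2 and 20.2 CPM in shPRAME and 17.5, 16.4 and 17.2 CPM in shCtrl, again without overlap. The log2 fold change was 0.25 (SE 0.054, edgeR adjusted p = 0.000408), and against a minimum fold of 1.2 it did not pass (adjusted p = 0.472). The log2 ratio of PVR to NECTIN2 counts was 2.36 ± 0.045 in shPRAME and 1.78 ± 0.040 in shCtrl (mean ± SD, n = 3 each). The groups did not overlap, with an exact 2-sided permutation p of 0.1, the smallest possible, and 0.15 adjusted over 3 ratios.

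CD47, the ligand of SIRPA that restrains engulfment by macrophages (NCBI gene 961, chromosome 3, 108043091 to 108091031), had 77.8, 76.0 and 80.7 CPM in shPRAME and 70.8, 72.5 and 71.4 CPM in shCtrl. The groups did not overlap, and the log2 fold change was 0.13 (SE 0.032, edgeR adjusted p = 0.00155). This rise was small and depended on the setting. Against a minimum fold of 1.2 it did not pass. With the median of neighbouring genes within 5 Mb taken out, CD47 stood lower in shPRAME (log2 fold change -0.14, edgeR adjusted p = 0.000783). That median was entered as a fixed value, so this p leaves out the spread of the neighbours.

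LGALS3, galectin-3, a secreted lectin that binds glycans of T cell surface proteins (NCBI gene 3958, chromosome 14, 55129252 to 55145430) fell. It had 26.9, 27.6 and 28.2 CPM in shPRAME and 52.0, 59.1 and 54.4 CPM in shCtrl. All shPRAME libraries lay below all shCtrl libraries, and the level was 2.001-fold lower (log2 fold change -1.001, SE 0.047, edgeR adjusted p = 3.53e-12).

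LGALS9, galectin-9, a ligand of the T cell receptor TIM-3 (NCBI gene 3965, chromosome 17, 27631188 to 27649560), had 1, 3 and 0 counts in shPRAME and 1, 2 and 1 in shCtrl. All 6 libraries were at or under the floor, so no fold is given. Its near-identical copies LGALS9B and LGALS9C had 0 counts in all libraries, so no galectin-9 reads were assigned to them.

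The start windows of both galectin genes are shown for their contrast in CpG dinucleotides. Capitals mark matches to GGGA, any 2 bases and TTCC, a kappaB sequence that NF-kB is known to bind, in LGALS3 (chr14:55129002-55129301, plus strand) and to the interferon-stimulated element letters in LGALS9 (chr17:27630938-27631237, plus strand), both searched on both strands in GRCh38.p14.

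LGALS3: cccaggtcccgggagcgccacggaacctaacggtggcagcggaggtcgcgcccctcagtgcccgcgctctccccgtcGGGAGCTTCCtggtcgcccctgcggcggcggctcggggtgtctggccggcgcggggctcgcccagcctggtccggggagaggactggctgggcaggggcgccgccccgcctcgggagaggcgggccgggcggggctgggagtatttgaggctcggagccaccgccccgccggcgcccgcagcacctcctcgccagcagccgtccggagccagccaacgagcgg

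LGALS9: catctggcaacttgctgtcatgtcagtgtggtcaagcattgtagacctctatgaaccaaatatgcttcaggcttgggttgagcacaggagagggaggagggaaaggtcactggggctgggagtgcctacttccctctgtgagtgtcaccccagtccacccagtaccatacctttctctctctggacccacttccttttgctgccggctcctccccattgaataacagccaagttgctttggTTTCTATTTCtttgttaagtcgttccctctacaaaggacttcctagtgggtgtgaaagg

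The LGALS3 window held 39 CpG dinucleotides and the LGALS9 window 2, against a median of 14 over all 27305 windows. The kappaB letters were found in 1.63% of all windows. RefSeq windows were at hand for 9 of the 10 members, and PDCD1LG2 was the one without. The CD47, CD276 and NT5E windows held 45, 37 and 37 CpG dinucleotides. PVR, NECTIN2 and CD274 had 27, 26 and 22, and TNFRSF14 had 12. The TNFRSF14 window (2556121 to 2556420) and the CD276 window (73684133 to 73684432) lie inside the listed genes, which begin at 2554234 and 73683944. Of the other searched motifs, TGACGTCA (the cyclic AMP response element, in 1.98% of windows) was found only in NECTIN2 among the 9, and TGANTCA (AP-1) and CACGTG (E-box) in none.

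TNFRSF14, the gene of HVEM, which engages the inhibitory receptor BTLA on T cells and also binds the co-stimulatory ligand LIGHT (NCBI gene 8764, chromosome 1, 2554234 to 2563829), fell the most among the tested members. It had 5, 8 and 9 counts in shPRAME and 63, 53 and 50 in shCtrl, or 0.160, 0.232 and 0.261 CPM against 1.86, 1.62 and 1.62 CPM. The gene passed the filter on low counts only through the shCtrl libraries. The groups were far apart, and the level was 7.66-fold lower (log2 fold change -2.94, SE 0.25, edgeR adjusted p = 1.37e-08). With 22 counts over the shPRAME group, the counting interval of the shPRAME to shCtrl ratio (0.129) was 0.0785 to 0.201 (exact, 95%). TNFRSF14-AS1, which overlaps it on the opposite strand, had 8 counts over all libraries.

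NT5E, whose product CD73 converts extracellular AMP to adenosine, an inhibitor of T cells (NCBI gene 4907, chromosome 6, 85450083 to 85495784), was the most abundant member in both groups. It had 221, 217 and 226 CPM in shPRAME and 475, 498 and 517 CPM in shCtrl. The groups did not overlap, and the level was 2.24-fold lower (log2 fold change -1.16, SE 0.029, edgeR adjusted p = 8.75e-16).

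**Figure D2:**
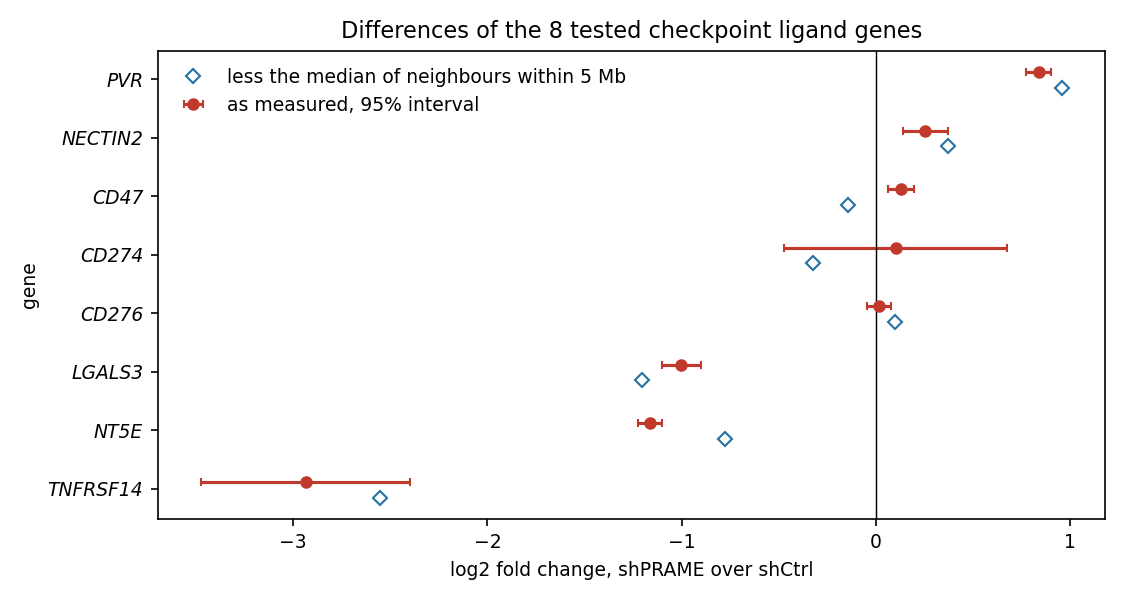
Log2 fold change of shPRAME over shCtrl for the 8 tested ligand genes, with 95% intervals (filled circles), and the same after the median of neighbouring genes within 5 Mb was taken out (open diamonds). PVR is highest at 0.84 and TNFRSF14 lowest at -2.94; the diamond of CD47 lies on the other side of 0 from its circle, at -0.14, and so does that of CD274, at -0.32.

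The order of the ligands by level changed between the groups. On a per-length scale (TPM computed here from the counts and the longest transcript), the shPRAME order was NT5E (178 ± 3.28), PVR (99.3 ± 1.65), CD276 (83.1 ± 1.82), LGALS3 (50.1 ± 0.911), CD47 (36.2 ± 1.02) and NECTIN2 (26.0 ± 0.497). In shCtrl it was NT5E (402 ± 14.1), LGALS3 (101 ± 6.17), CD276 (82.9 ± 0.885), PVR (56.0 ± 0.881), CD47 (33.4 ± 0.299) and NECTIN2 (21.98 ± 0.816). Neighbours in these orders did not overlap over the libraries. PVR stood above CD276 and LGALS3 in shPRAME and below both in shCtrl. The remaining 4 genes were under 2 on this scale. TNFRSF14 stood at 0.161 ± 0.038 in shPRAME, below CD274 (0.670 ± 0.148), and at 1.27 ± 0.115 in shCtrl, above CD274 (0.622 ± 0.183). PDCD1LG2 overlapped LGALS9 in shPRAME and CD274 in shCtrl.

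Genes near some members were shifted together. Among tested genes within 5 Mb of NT5E, 11 of 41 were higher and 24 lower in shPRAME; their median log2 fold change was -0.39, and its nearest tested protein-coding neighbours fell (TBX18 by 0.79 and SNX14 by 0.82 on the log2 scale). Around TNFRSF14, 10 of 95 were higher and 64 lower (median -0.39), and its neighbour PRXL2B fell by 1.02 while PANK4 did not pass. Around CD274 the shift ran the other way, with 20 of 29 higher and 4 lower (median 0.43), and PLGRKT rose by 0.50 while RIC1 did not pass. CD47 also lay among raised genes, with 16 of 29 higher and 7 lower (median 0.27), as did LGALS3, with 34 of 64 higher and 12 lower (median 0.20). The median over the whole of chromosome 14 was also 0.20 (272 of 511 higher and 100 lower), so the shift around LGALS3 was not local. Over all tested genes 37.7% were higher and 36.8% lower. The medians around PVR, NECTIN2 and CD276 were -0.12, -0.12 and -0.08. What the shifts arise from was not tested.

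With the regional median taken out of each gene's difference and the same test run, PVR (log2 fold change 0.96), NECTIN2 (0.37), LGALS3 (-1.203), TNFRSF14 (-2.55) and NT5E (-0.78) still passed in their direction. The median was entered as a fixed value, so p-values of this setting do not test a gene against the spread of its neighbours. CD47 turned, as given above, CD276 passed as higher (0.10, edgeR adjusted p = 0.00578) and CD274 stood at -0.32 (adjusted p = 0.298). That made 3 members higher and 4 lower of 8, where 36.2% of all tested genes were higher and 35.1% lower (71.2% in either direction).

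**Figure D3:**
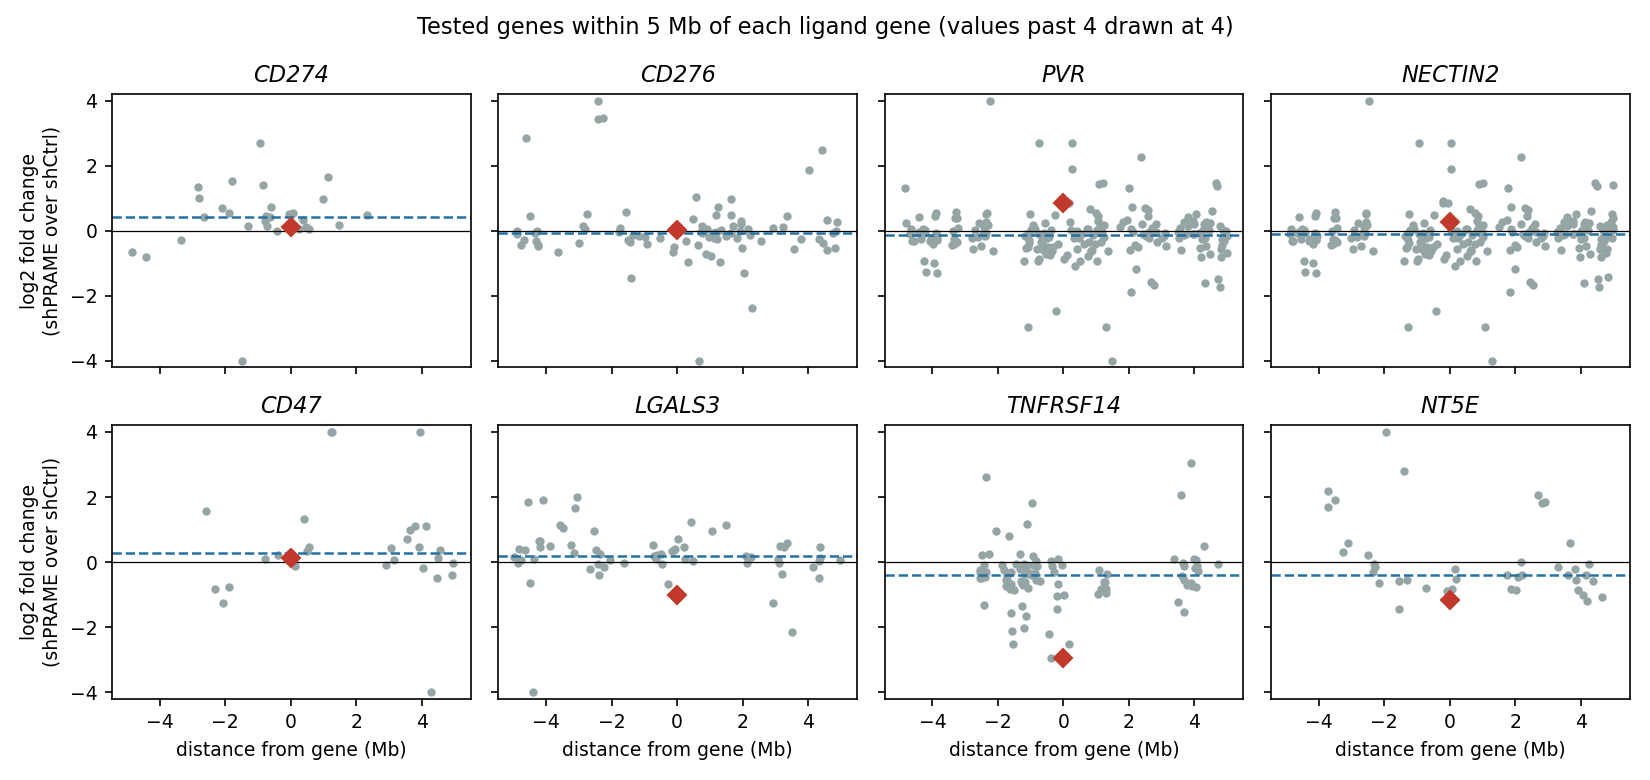
Log2 fold change (shPRAME over shCtrl) of tested genes within 5 Mb of 8 ligand genes, against distance in Mb; grey points are neighbours, the dashed line is their median and the red diamond is the ligand gene. NT5E and TNFRSF14 lie under neighbourhood medians of -0.39, and CD47 and CD274 lie at or under raised neighbourhoods (0.27 and 0.43). PVR, NECTIN2, LGALS3 and, by little, CD276 lie on the opposite side of 0 from theirs.

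Relatives, partners and known inputs of the ligands were counted from lists of 161 genes, of which 116 were tested. In shPRAME 43 were higher, 48 lower and 25 did not pass, and their median log2 fold change was -0.04, beside 37.7% higher and 36.8% lower over all genes. No list below was tested as a set.

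The interferon and JAK-STAT genes listed as inputs of CD274 were mostly lower. In shPRAME 14 of 18 tested genes fell and 3 rose, and JAK2 did not pass (median log2 fold change -0.46). Over all tested genes 36.8% were lower and 37.7% higher. The list also holds SOCS1, SOCS3, PTPN1 and PTPN2, known to restrain this signalling, so the count does not give the net input to CD274. JAK1, a kinase of the interferon receptors, had 87.7 ± 0.560 CPM in shPRAME and 144 ± 1.81 CPM in shCtrl. IFNAR1, a chain of the type I interferon receptor, had 75.8 ± 2.70 and 127 ± 2.24 CPM. IRF1, the factor known to bind the CD274 promoter and named here after its values were seen, had 4.23 ± 0.262 and 13.7 ± 1.19 CPM. JAK2, which shares its neighbourhood with CD274 and is also named after its values were seen, had 7.80 ± 0.152 and 7.82 ± 1.15 CPM. STAT5B (52.9 ± 0.387 and 42.1 ± 0.760 CPM) and the phosphatase gene PTPN2 (33.6 ± 1.77 and 27.1 ± 1.21 CPM) rose. With the regional median removed, 10 were lower and 3 higher; IFNAR1 then turned to 0.08 (edgeR adjusted p = 0.030). PTPN2 stood at -0.08 (adjusted p = 0.182). JAK2 then passed as lower, at -0.44 (edgeR adjusted p = 0.000958).

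Of 20 other transcription inputs of CD274, 5 rose and 11 fell (median -0.08). MYC rose to 76.0 ± 1.03 CPM in shPRAME, against 18.2 ± 0.557 CPM in shCtrl, and the Hippo effector YAP1 to 165 ± 4.24 against 124 ± 7.36 CPM, though YAP1 stood at -0.13 once the regional median was removed. HIF1A, the hypoxia factor, fell to 366 ± 3.42 CPM against 687 ± 39.7 CPM, and NFKB2, an NF-kB subunit gene, to 27.5 ± 0.273 against 54.2 ± 0.915 CPM. Of 22 genes that act on PD-L1 protein, 9 rose and 8 fell, and with the regional median removed 8 were higher and 11 lower. GSK3B, a kinase that marks PD-L1 for degradation, had 380 ± 13.4 CPM in shPRAME and 163 ± 4.01 CPM in shCtrl. CUL3, a ubiquitin ligase scaffold, had 109 ± 0.860 and 137 ± 3.85 CPM (not called once the regional median was removed, at -0.02), and CMTM3 15.9 ± 0.486 and 23.8 ± 0.390 CPM. CMTM3 overlaps CMTM4 on the genome. CMTM6, which keeps PD-L1 at the cell surface and is named after its values were seen, had 128 CPM in shPRAME and 129 CPM in shCtrl and did not pass (edgeR adjusted p = 0.576), but stood at -0.36 once the regional median was removed (adjusted p = 1.79e-09).

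**Figure D4:**
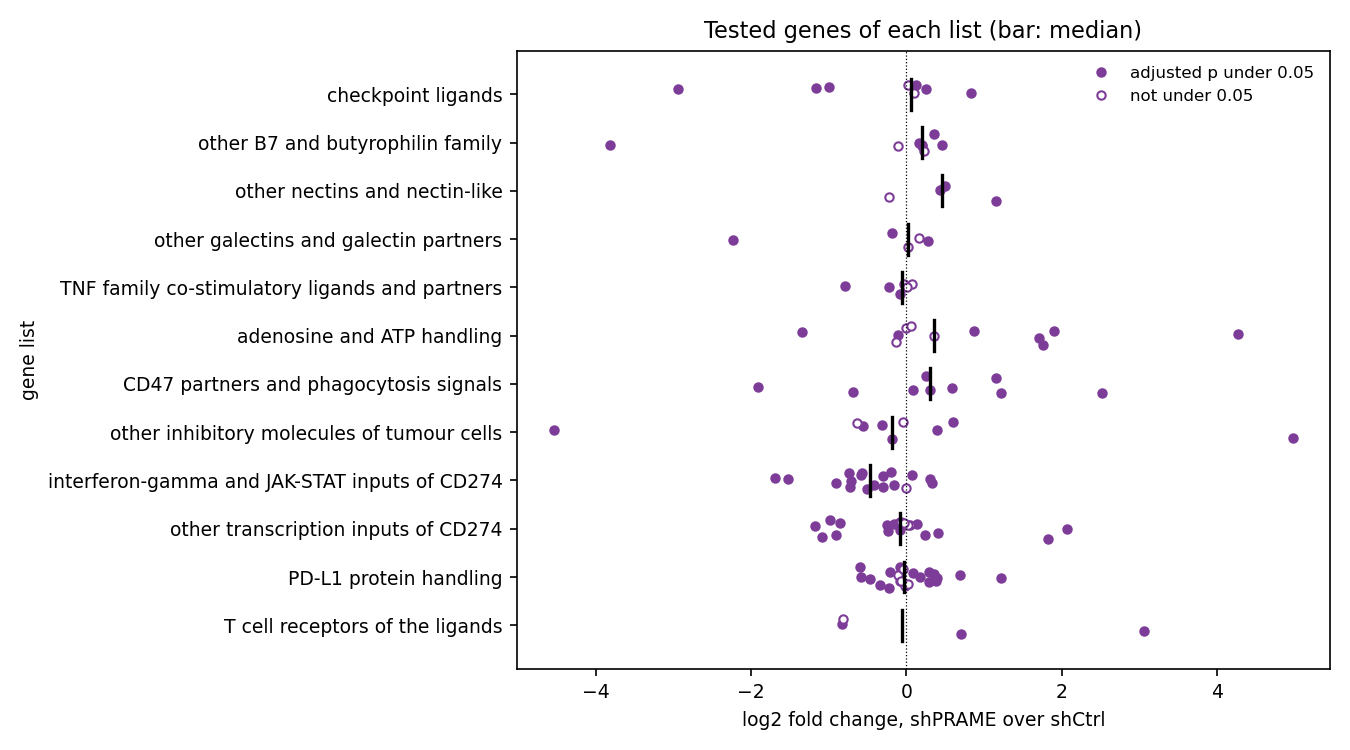
Log2 fold change (shPRAME over shCtrl) of each tested gene, by list, with filled points at an adjusted p under 0.05 and a bar at the list's median. The ligand genes have a median of 0.06 and the interferon and JAK-STAT inputs one of -0.46; most lists have points on both sides of 0.

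Among relatives of PVR and NECTIN2, 3 of 4 tested nectins and nectin-like genes rose and none fell. With the regional median removed the fourth, CADM1, named after its values were seen, was lower (log2 fold change -0.68, edgeR adjusted p = 2.57e-05). NECTIN1 had 39.5 ± 1.02 CPM in shPRAME and 17.7 ± 0.545 CPM in shCtrl, and NECTIN3, a binding partner of PVR, 65.9 ± 2.955 and 49.0 ± 0.882 CPM. Of 8 tested B7 and butyrophilin genes, 5 rose and 1 fell, but with the regional median removed 2 were higher and 2 lower. NCR3LG1, the ligand B7-H6 of the NK receptor NKp30, had 92.8 ± 2.10 CPM in shPRAME and 72.3 ± 0.880 CPM in shCtrl, and VSIR, the checkpoint VISTA, 4.88 ± 0.351 and 3.55 ± 0.214 CPM. ICOSLG, the co-stimulatory ICOS ligand, had 0.143 ± 0.098 and 2.02 ± 0.518 CPM. It was the gene of this list that fell, and it reached the filter on low counts only through its shCtrl libraries. ICOSLG has a near-identical copy, LOC102723996, named after its values were seen, so its own level is uncertain. The pair together had 0.230 ± 0.076 CPM in shPRAME and 5.89 ± 0.174 CPM in shCtrl.

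Galectins and their partners split, with 1 higher and 2 lower of 5 tested. LGALS8, galectin-8, had 15.8 ± 0.480 CPM in shPRAME and 74.8 ± 2.02 CPM in shCtrl; it overlaps HEATR1, a far more abundant gene that shares part of the locus. The secreted galectin ligand LGALS3BP had 198 ± 6.87 and 224 ± 7.91 CPM, and MGAT5, whose enzyme branches the N-glycans that galectins bind, 511 ± 18.1 and 420 ± 5.01 CPM. In the TNF family list, 3 of 6 tested genes fell and none rose, and with the regional median removed 1, CD70, was lower. CD70, a ligand of CD27, had 11.8 ± 0.410 CPM in shPRAME and 20.5 ± 0.380 CPM in shCtrl, and TNFRSF1A, a TNF receptor gene, 113 ± 1.24 and 119 ± 2.03 CPM (not called once the regional median was removed, adjusted p = 0.0753). The HVEM ligand gene TNFSF14 was below the filter.

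Adenosine genes around NT5E were more often higher than lower, with 5 and 2 of 11 tested. The receptor gene ADORA2B had 15.5 ± 0.436 CPM in shPRAME and 4.75 ± 0.117 CPM in shCtrl, and SLC29A2, a nucleoside transporter, 10.04 ± 0.167 and 2.94 ± 0.267 CPM. ADORA1, another adenosine receptor gene, had 3.58 ± 0.137 and 9.11 ± 0.498 CPM. ADK, adenosine kinase, had 43.2 ± 0.947 and 46.5 ± 0.874 CPM, and was not called once the regional median was removed (-0.02). CD38, a NAD glycohydrolase of an alternative route to adenosine and named after its values were seen, had 1.06 ± 0.115 CPM in shPRAME and 0.052 ± 0.019 CPM in shCtrl. CD38 reached the filter on low counts only through its shPRAME libraries.

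Of 9 tested partners of CD47 and phagocytosis signals, 7 rose and 2 fell. SIRPB1 had 11.6 ± 1.28 CPM in shPRAME and 2.02 ± 0.201 CPM in shCtrl, and SIRPA, the receptor of CD47 and named after its values were seen, 32.7 ± 2.21 and 14.7 ± 0.810 CPM. Reads of these similar paralogs may have been split between them, which makes both levels uncertain. The integrin gene ITGB3 rose to 887 ± 37.35 CPM against 589 ± 11.5 CPM. THBS1, a secreted ligand of CD47, had 690 ± 89.6 CPM in shPRAME and 2592 ± 94.1 CPM in shCtrl, and ITGAV 136 ± 3.79 and 219 ± 14.3 CPM. Among other inhibitory molecules 3 rose and 4 fell of 9, and with the regional median removed 4 were higher and 3 lower. CD200, whose receptor restrains myeloid cells, had 1.29 ± 0.190 CPM in shPRAME and 30.0 ± 1.04 CPM in shCtrl, 23.2-fold lower. HLA-E, the ligand of the inhibitory receptor NKG2A, had 49.96 ± 1.53 and 62.0 ± 0.316 CPM; HLA genes resemble each other. LGMN (45.1 ± 1.45 and 34.3 ± 0.410 CPM) and the prostaglandin synthase gene PTGS2 (2.36 ± 0.395 and 1.56 ± 0.197 CPM) rose.

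Summed levels of markers of other cell types differed between the groups, and those of the fibroblast and leukocyte lists were of the order of CD276 and CD47. The 14 T and NK cell markers summed to 1.98 to 3.02 CPM in shPRAME and 18.01 to 19.3 CPM in shCtrl, nearly all of it NCAM1 (2.38 ± 0.530 and 18.6 ± 0.624 CPM). The 13 leukocyte markers summed to 73.4 to 75.1 and 45.1 to 47.5 CPM, mostly CD68 (70.6 ± 0.767 and 43.9 ± 1.16 CPM). Of 4 tested, 3 were higher and 1, ITGAX, lower (0.726 ± 0.056 and 1.67 ± 0.125 CPM), with a median log2 fold change of 2.40. LYZ had 1.31 ± 0.155 and 0.071 ± 0.044 CPM, PTPRC had 0.925 ± 0.199 CPM in shPRAME and no count in shCtrl, and TYROBP and MS4A1 had no count in any library. The 10 fibroblast markers summed to 93.1 to 101 and 113 to 116 CPM, and 6 of 8 tested were higher and 2 lower (median log2 fold change 4.15). The 2 that fell were FAP (27.0 ± 0.771 and 46.1 ± 1.202 CPM) and PDGFRB (17.4 ± 1.32 and 64.3 ± 1.85 CPM). Among those that rose, the collagen gene COL1A2 had 21.6 ± 1.31 CPM in shPRAME and no count in shCtrl, PDGFRA 12.3 ± 0.732 and 3.72 ± 0.224 CPM, LUM 9.88 ± 0.178 and 0.010 ± 0.018 CPM, and POSTN 5.44 ± 0.366 and 0.051 ± 0.046 CPM. LYZ, PTPRC and these 4 genes are named after their values were seen. LYZ, PTPRC, COL1A2, LUM and POSTN reached the filter on low counts only through their shPRAME libraries. Genes as low in both groups would not have been counted, so the counts and medians of both lists are partly set by the filter. Over all tested genes 37.7% were higher and 36.8% lower. The 7 endothelial markers summed to 5.47 to 6.25 and 12.4 to 14.05 CPM, with EGFL7 (2.42 ± 0.034 and 12.6 ± 0.495 CPM) and TEK (2.79 ± 0.296 and 0.031 ± 0.00144 CPM) the most abundant tested and CDH5 and CLDN5 at 0. Keratinocyte markers summed to 23.2 to 24.4 and 27.7 to 29.6 CPM, almost all KRT10 (23.4 ± 0.613 and 28.1 ± 1.08 CPM), with KRT1, KRT5, IVL and TP63 at 0. The part of other cells in the results was not tested.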

How the data were processed

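Raw gene counts were deposited as whole numbers keyed by NCBI gene identifier, with a file for each library. Tools listed in the submitters' processing notes are fastp, STAR and Salmon, with builds GRCh38 and hg38. Which of them made the counts, with which annotation and strand setting, is not given in the sources used here. RNA was polyA-enriched and sequenced as pairs of 150 bases, per the labels' protocols.

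Repeated identifiers (34 rows) were summed, leaving 40895, of which 40789 matched RefSeq GRCh38.p14 symbols. Every gene was fitted in edgeR 4.0.16 (R 4.3.3: filterByExpr, TMM, glmQLFit, glmQLFTest, 2-sided) on group alone. The same fit was also run on counts simulated with the means and dispersions of these data. SE is the log2 fold change over the root of F. Lengths are the longest GENCODE 29 transcript. For the regional setting each gene's offset held, as a fixed value, the median log2 fold change of tested genes within 5 Mb (at least 5). Its p-values leave out the uncertainty of that median. Alternatives included limma 3.58.1 voom and DESeq2 1.42.0. Promoter windows are from RefSeq.

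The members and lists were chosen with earlier results of these data known. Named genes were the members, PRAME, the nearest tested protein-coding genes, up to 4 per list (2 higher and 2 lower, by lowest adjusted p, among genes averaging 1 CPM or more), the 2 most abundant tested markers per list, and the closest patterns to CD274 and PDCD1LG2; others are said to be named after their values were seen. A few genes that the rule names are not reported here.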

Additional observations from a re-analysis of the deposited data

How the results depend on the processing

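The counts of 3 ligand genes higher and 3 lower held with RLE factors, library total scaling, the stricter filter, DESeq2, limma-voom, the replicate block and each library left out (3 and 3 in every case). TNFRSF14 passed the stricter filter through its shCtrl libraries only. Without a filter on low counts PDCD1LG2 joined the lower ones (4). That fit treated the spread between libraries as known exactly, so its p-values are not relied on. Against a fold of 1.2, 1 ligand gene was higher (PVR) and 3 were lower (24.6% and 23.8% of all genes), and pathway genes stood at 28 higher and 28 lower. Leaving out a library gave 40 to 43 pathway genes higher and 44 to 51 lower. The replicate numbers did not pair the libraries (correlation of deviations between same-numbered libraries -0.06, -0.21 and -0.17); with the replicate block 3 ligand genes were higher and 3 lower.

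CD274 turned in sign without shPRAME replicate 1 (-0.07), without shCtrl replicate 3 (-0.10) and with the regional median removed (-0.32), and CD47 turned with the regional median removed (-0.14); the cause was not tested. Over leave-one-out fits CD274 ranged over -0.10 to 0.29, PVR 0.82 to 0.85, NECTIN2 0.23 to 0.27, CD47 0.11 to 0.16, LGALS3 -1.04 to -0.95, TNFRSF14 -3.08 to -2.77 and NT5E -1.20 to -1.13. The shPRAME minus shCtrl difference of log2 ratios ranged over 1.72 to 3.34 for CD274 over PDCD1LG2 (not interpreted, since PDCD1LG2 was at or under 3 counts in shPRAME), 0.56 to 0.60 for PVR over NECTIN2 and -1.36 to 0.055 for LGALS3 over LGALS9, where it turned to 0.055 without shPRAME replicate 2 (-0.59 with all libraries, exact p = 0.6); LGALS9 was at or under 3 counts throughout, so that ratio is not interpreted.

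Most neighbourhood medians moved with the window. At 1 Mb they were 0.32 for PDCD1LG2, -0.23 for CD276, -0.24 for PVR, -0.21 for NECTIN2, 0.23 for LGALS3, -0.042 for LGALS9 (0.12 at 5 Mb), -0.35 for TNFRSF14 and -0.79 for NT5E. Over the whole chromosome they were 0.15 for CD274 and PDCD1LG2, -0.058 for CD276 and -0.046 for PVR and NECTIN2. For CD47, TNFRSF14 and NT5E they were 0.046, -0.10 and 0.012. Little changed were the 1 Mb medians of CD274 (0.41) and CD47 (0.27), and the whole-chromosome medians of LGALS3 (0.20) and LGALS9 (0.12). Depth limits CD274, PDCD1LG2, LGALS9 and, in shPRAME, TNFRSF14, which had at most 30 counts in a library there. Summing LGALS9 with its copies added 0 counts and left it untested.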

Other observations

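Transcripts of some of the receptors that T cells use for these ligands were themselves present in the melanoma libraries. CD96, a receptor of PVR known from T and NK cells, had 155 ± 2.435 CPM in shPRAME and 95.6 ± 0.679 CPM in shCtrl (log2 fold change 0.70, SE 0.027, edgeR adjusted p = 1.98e-13, higher in 3 of 3 libraries). Of 14 T and NK cell markers, 6 had no count in any library and the others had some. The 14 summed to 1.98 to 3.02 CPM in shPRAME and 18.01 to 19.3 CPM in shCtrl, nearly all of it NCAM1. The leukocyte marker PTPRC had counts in shPRAME only. Which cells the CD96 reads came from was not tested. CD226, the activating receptor of PVR and NECTIN2 and named after its values were seen, had 1.23 ± 0.088 CPM in shPRAME and 0.145 ± 0.053 CPM in shCtrl. CD226 also reached the filter on low counts only through its shPRAME libraries. PDCD1 and PVRIG had no count, and TIGIT, BTLA, HAVCR2, CD160 and CD28 did not reach the filter. Of the 11 receptor genes 4 were tested, of which 2 were higher and 1 lower.

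The protein-coding genes whose log2 CPM, centred over the 6 libraries, lay closest to CD274 were GSTZ1, TAS2R4 and ZNF546, with root mean square distances of 0.15, 0.15 and 0.15 among 12002 genes. Those closest to PDCD1LG2 were BATF3, ATF3 and RASSF7, at 0.31, 0.32 and 0.33. Both members rest on few counts, which limits these distances.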
